A study of Mus musculus with 6 samples.

Results

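The 10 immediate early genes Fos, Fosb, Jun, Junb, Jund, Egr1, Ier2, Dusp1, Zfp36 and Atf3 were described in hematopoietic stem cells (HSCs) sorted from mouse bone marrow (BM). The genes were taken by symbol, all 10 were found among the 21878 gene rows of each library, and all 10 passed the filter on low values that kept 10449 genes for testing. HSCs were defined for the sort as lineage-negative Sca1+c-Kit+ cells that lack CD34 and Flk2 (Flt3), from wild-type mice, which the methods describe as C57BL/6 and age-matched. The control group (3 libraries) came from vehicle-treated mice. The IGF1 group (3 libraries) came from mice that had received 200 µg/kg recombinant mouse IGF1 subcutaneously, at day 1 after the injection. The extraction text of the labels speaks of irradiated mice where the treatment label gives IGF-1, and the treatment label was followed. Neither the age of the mice nor whether animals were pooled is given in the sources used here. Values are FPKM (fragments scaled by gene length and by library size), so levels can be compared between genes. The 3 values of a group are given in the order of replicates 1, 2 and 3.

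Immediate early genes are switched on within minutes by growth factors, cytokines, stress and cell handling, through transcription factors that are already present in the resting cell, such as SRF with its ternary complex partners and CREB. The Fos and Jun proteins pair through leucine zippers to form AP-1, while Egr1 encodes a zinc finger factor that binds GC-rich sites. Dusp1 encodes a phosphatase that switches off MAP kinases, and Zfp36 encodes tristetraprolin, which speeds the decay of mRNAs with AU-rich elements, so both belong to the feedback arm of the response. Ier2 encodes a nuclear protein of the early response, and Atf3 a stress-induced relative of the CREB and AP-1 factors. In HSCs, EGR1 and AP-1 factors are known for their links to quiescence and to the response to stimulation.

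Promoter sequence is shown for the 4 genes that mark the contrast described below, Fos, Dusp1 and Zfp36, which were lower in IGF1 libraries than in control replicates 1 and 3, and Fosb, which was higher. The 250 bases before the start site are given 5′ to 3′ on the strand of the gene (RefSeq, GRCm38.p6). They cover chr12:85473640-85473889 (plus strand) for Fos, chr7:19310046-19310295 (minus strand) for Fosb, chr17:26508473-26508722 (minus strand) for Dusp1 and chr7:28379229-28379478 (minus strand) for Zfp36. Capitals mark matches, on either strand, to the CRE core TGACG (which lies within the full CRE TGACGTCA), the EGR site GCGNGGGCG, the CArG box bound by SRF, the AP-1 site TGANTCA and the TATA box TATAAA.
Fos: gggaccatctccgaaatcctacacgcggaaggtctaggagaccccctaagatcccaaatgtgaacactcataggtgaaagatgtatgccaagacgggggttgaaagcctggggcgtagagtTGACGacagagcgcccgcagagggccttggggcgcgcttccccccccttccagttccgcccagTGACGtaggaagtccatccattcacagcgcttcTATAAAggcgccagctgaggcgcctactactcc
Fosb: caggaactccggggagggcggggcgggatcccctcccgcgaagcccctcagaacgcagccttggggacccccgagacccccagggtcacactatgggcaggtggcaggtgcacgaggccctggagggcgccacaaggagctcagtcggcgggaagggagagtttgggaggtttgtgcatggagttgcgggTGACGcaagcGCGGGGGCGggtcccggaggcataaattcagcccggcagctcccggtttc
Dusp1: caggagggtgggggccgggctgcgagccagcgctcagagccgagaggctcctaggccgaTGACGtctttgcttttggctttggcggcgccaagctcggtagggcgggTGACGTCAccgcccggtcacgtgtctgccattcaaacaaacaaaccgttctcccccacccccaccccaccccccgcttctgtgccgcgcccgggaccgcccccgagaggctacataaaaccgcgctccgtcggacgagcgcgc
Zfp36: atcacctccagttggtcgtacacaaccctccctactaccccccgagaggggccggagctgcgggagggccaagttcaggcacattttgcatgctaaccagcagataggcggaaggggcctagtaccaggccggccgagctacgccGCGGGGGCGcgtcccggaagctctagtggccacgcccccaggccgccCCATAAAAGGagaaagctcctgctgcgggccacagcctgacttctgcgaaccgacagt

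Of the 10 genes, 8 had a sequence in the RefSeq promoter table, and Egr1 and Ier2 had none. The CRE core was present in 5 of these 8 (Fos, Fosb, Junb, Dusp1 and Atf3), and in 17.8% of the 32851 promoters of the same length. The full CRE was present in Dusp1 alone among the 8 and in 1.55% of all promoters, the CArG box in Zfp36 alone and in 1.47% of all promoters, and the EGR site in Fosb and Zfp36 and in 4.70% of all promoters. The TATA box was found in Fos and in 12.4% of all promoters, and the AP-1 site in 0 of the 8 and in 6.75% of all promoters. The shared CRE core did not separate the genes by direction against control replicates 1 and 3, since it was found in Fos and Dusp1 as well as in Fosb. Over all 6 libraries Fosb was called, and Fos and Dusp1 did not pass the test. These matches describe the letters of the windows and not binding. Sites farther than 250 bases from the RefSeq start site were not scanned, so a gene without a match here may have one elsewhere. The windows were not all placed alike against the GENCODE loci. That of Jund ended at chr8:70697738, while its locus starts at 70698949, and those of Dusp1, Zfp36 and Atf3 lay inside their loci.

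The 6 libraries held between 11237288 and 16022791 reads on listed genes, as recovered from the steps of the FPKM values. Control replicate 2 stood apart from the other controls. Between control replicates 1 and 3 the mean chi-squared per gene was 1.52 on these reads, and between pairs of IGF1 libraries it was 1.69 to 1.90, where sampling noise alone gives about 1. Between control replicate 2 and the other controls it was 229 and 231, and between control replicate 2 and the IGF1 libraries 24.7 to 28.0. The changes of the 10 genes and the counts of calls in each gene list are therefore given with and without control replicate 2. Nothing in the labels says that the libraries of a group came from separate mice, so p-values measure the spread between these libraries, which may be technical.

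Most of the 10 genes were highly expressed. Fos had a median of 855 FPKM over the 6 libraries, where the median tested gene had a mean of 10.8 FPKM. Among the 10449 tested genes Fos ranked 15 in control replicate 1, the library where it was highest, and 109 on average over the 6 libraries. Ier2 (median 512 FPKM) and Junb (498 FPKM) followed, then Jun (327 FPKM), Dusp1 (311 FPKM), Zfp36 (311 FPKM), Jund (248 FPKM) and Egr1 (158 FPKM). The ranges of neighbours from Ier2 to Egr1 in this order overlapped over the 6 libraries, so their order was not fixed. Fosb (41.8 FPKM) and Atf3 (5.98 FPKM) lay lower, with ranges that did not overlap with each other or with those of the other 8 genes. The reads behind the values ran from 17799 to 52618 for Fos and from 136 to 190 for Atf3, for which counting error reached 8.57% of the value in the library with the fewest reads.

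**Figure D1:**
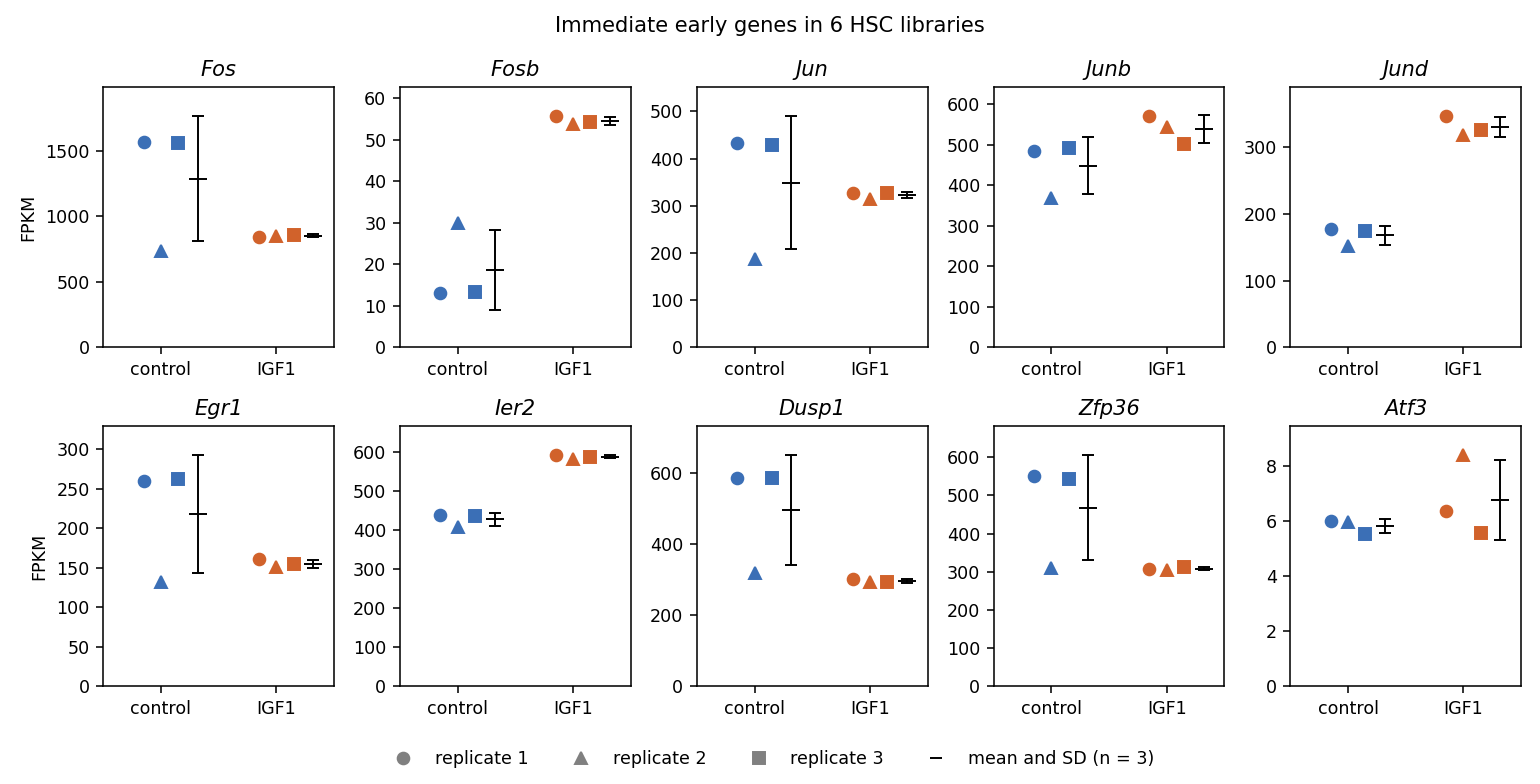
FPKM (y axis, linear, from 0) of the 10 genes in 3 control (blue) and 3 IGF1 (orange) libraries, with the replicate number as the marker shape and the mean ± SD of each group in black. The IGF1 libraries lie close together except in Atf3, while control replicate 2 (triangle) lies away from control replicates 1 and 3 in Fos, Fosb, Jun, Egr1, Dusp1 and Zfp36.

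Among the Fos subunits, Fosb rose and Fos did not pass the test. By GENCODE on GRCm38, Fos lies at chr12:85473890-85477273 (plus strand) and Fosb at chr7:19302696-19310051 (minus strand). Fosb stood at 13.0, 29.9 and 13.3 FPKM without IGF1 and at 55.7, 53.7 and 54.3 FPKM after IGF1. All IGF1 libraries lay above all controls, with control replicate 2 in the gap, above its group and short of the IGF1 range. The mean rose 2.91-fold, from 18.7 ± 9.63 to 54.5 ± 1.01 FPKM (SD, n = 3 each), a log2 change of 1.60 on the log2(FPKM + 1) scale (limma, SE 0.32, adjusted p = 0.0369 with Benjamini-Hochberg adjustment over all tested genes). Fosb was the 1 gene of the 10 that was called, that is, changed by over 2-fold with an adjusted p under 0.05, where 6.61% of all tested genes were called, 1.98% of all being higher and 4.63% lower. The share of higher genes among all those called was 30.0%, and 65.0% when libraries were scaled to their 75th percentile. Without control replicate 2 the log2 change of Fosb was 1.97 (adjusted p = 5.87e-11). Without any other library Fosb did not pass (adjusted p between 0.147 and 0.164, log2 change 1.40 to 1.61), and 0 genes of the table were then called, although 2982 to 3205 had an unadjusted p under 0.05. It stayed called with trends on transcript length and GC content removed (1.71, adjusted p = 0.0447).

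Fos stood at 1563, 737 and 1560 FPKM without IGF1 and at 838, 852 and 858 FPKM after IGF1. Control replicates 1 and 3 were high and within 0.243% of each other, while control replicate 2 was the lowest of all 6 libraries, so the groups overlapped. Fos had a log2 change of -0.52 (limma, SE 0.33, adjusted p = 0.232), which did not pass the test. Without control replicate 2 the log2 change was -0.88 (standard error 0.02, adjusted p = 1.59e-10), and the IGF1 mean was 0.544 times that of the other controls. Of the remaining Fos relatives, Fosl1 lay at 0.0366 to 0.207 FPKM and Fosl2 at 0.804 to 1.96 FPKM, so Fos made up most of the Fos family message in every library. The share of Fosb in the summed FPKM of the family was 0.826%, 3.89% and 0.847% in control replicates 1, 2 and 3 and 5.91% to 6.21% in the IGF1 libraries. The ratio of Fos to Fosb was 120, 24.7 and 117 in the controls and 15.1 to 15.9 in the IGF1 libraries.

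Among the Jun subunits, Jund was higher in IGF1 libraries by adjusted p, and Junb and Jun did not pass the test. JUND is known as the subunit present in resting cells, whereas JUN and JUNB are the more inducible ones. Jund (chr8:70698949-70700616, plus strand) and Jun (chr4:95049034-95052222, minus strand) each have 1 exon, and Junb lies at chr8:84974484-84978718 (minus strand). Jund stood at 178, 152 and 174 FPKM without IGF1 and at 347, 319 and 326 FPKM after IGF1. The groups did not overlap, and control replicate 2 was the lowest library here as well, on the far side of the other controls from the IGF1 libraries. The mean rose 1.97-fold, from 168 ± 13.8 to 331 ± 14.7 FPKM (SD, n = 3 each), with a log2 change of 0.97 (limma, SE 0.12, adjusted p = 0.0286). This passed the adjusted p but fell just short of the 2-fold threshold. By adjusted p alone 2 of the 10 genes passed, Fosb and Jund, both higher, where 20.4% of all tested genes passed, 6.26% of all being higher and 14.1% lower. Without control replicate 2 the log2 change of Jund was 0.91 (adjusted p = 5.84e-09), and without any other library Jund did not pass (adjusted p between 0.141 and 0.164, log2 change 0.94 to 1.02). With length and GC trends removed it was 0.29 (adjusted p = 0.282). The reference transcript of Jund had a GC content of 67.1%, the highest of the 10, against a median of 49.7% over all tested genes.

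Junb stood at 486, 369 and 493 FPKM without IGF1 and at 571, 543 and 503 FPKM after IGF1. The groups did not overlap, but IGF1 replicate 3 lay close to control replicate 3. The log2 change of 0.27 (limma, SE 0.17, adjusted p = 0.221) did not pass, was 0.14 without control replicate 2 (adjusted p = 0.0154), and turned to -0.50 under quantile normalization and -0.20 with length and GC trends removed. On the opposite strand the Junb locus overlaps Prdx2 (242 to 491 FPKM), and whether the counting used strand is not given in the sources used here, so reads from the overlap cannot be assigned.

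Jun stood at 432, 187 and 429 FPKM without IGF1 and at 327, 315 and 326 FPKM after IGF1. The IGF1 libraries lay between control replicate 2, the lowest, and the other controls. The log2 change of -0.01 (limma, SE 0.35, adjusted p = 0.972) was thus a mean of unlike controls, and its direction changed with the scaling, from -0.64 under quantile normalization to 0.33 with 75th percentile scaling. Without control replicate 2 it was -0.42 (adjusted p = 1.58e-07). The make-up of the Jun family differed accordingly. Of the summed FPKM of Jun, Junb and Jund, Jund made up 16.2%, 21.5% and 15.9% in control replicates 1, 2 and 3 and 27.1% to 28.2% in the IGF1 libraries, with no overlap. Jun made up 39.4%, 26.4% and 39.2% in the controls and 26.3% to 28.2% in the IGF1 libraries, where control replicate 2 fell within the IGF1 range. Junb made up 44.4% to 52.1% in the controls and 43.5% to 46.2% in the IGF1 libraries.

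**Figure D2:**
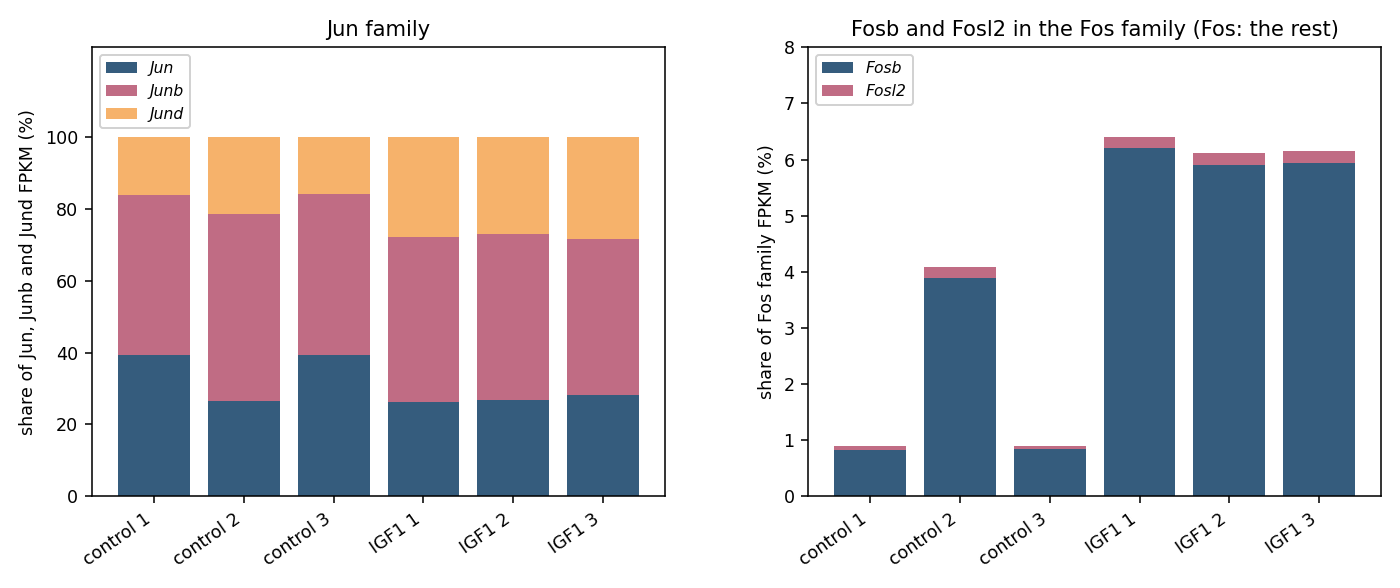
Left, share (%) of Jun, Junb and Jund in their summed FPKM in each of the 6 libraries. Right, share (%) of Fosb and Fosl2 in the summed FPKM of Fos, Fosb, Fosl1 and Fosl2, with Fos making up nearly all of the rest. Jund (27.1% to 28.2%) and Fosb (5.91% to 6.21%) took larger shares in the IGF1 libraries than in any control, and control replicate 2 is intermediate for both.

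Egr1 followed the pattern of Fos. It stood at 260, 132 and 263 FPKM without IGF1 and at 161, 151 and 155 FPKM after IGF1. Control replicate 2 was again the lowest library and the groups overlapped. The log2 change was -0.42 (limma, SE 0.28, adjusted p = 0.248), which did not pass, and -0.75 without control replicate 2 (adjusted p = 1e-08), with the IGF1 mean at 0.594 times that of the other controls.

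The feedback genes Dusp1 and Zfp36 both had negative changes, and neither passed the test. Dusp1 stood at 586, 319 and 586 FPKM without IGF1 and at 303, 293 and 294 FPKM after IGF1. The IGF1 libraries all lay below the controls, control replicate 2 only narrowly above them. The log2 change was -0.69 (limma, SE 0.26, adjusted p = 0.0832), and -0.98 without control replicate 2 (adjusted p = 2.97e-10). The annotated locus overlaps Ergic1 (17.3 to 39.2 FPKM) on the opposite strand. Zfp36 stood at 550, 309 and 544 FPKM without IGF1 and at 306, 305 and 312 FPKM after IGF1. Control replicate 2 fell within the range of the IGF1 libraries. The log2 change of Zfp36 was -0.56 (limma, SE 0.25, adjusted p = 0.116), and -0.83 without control replicate 2 (adjusted p = 6.35e-10).

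Ier2 stood at 440, 408 and 435 FPKM without IGF1 and at 592, 583 and 588 FPKM after IGF1. The groups did not overlap, and all 3 controls were alike in this gene. The log2 change of 0.46 (limma, SE 0.13, adjusted p = 0.0523) missed the adjusted p narrowly and was 0.42 without control replicate 2 (adjusted p = 4.06e-08). It passed the adjusted p with 75th percentile scaling (0.81, adjusted p = 0.0406), median of ratios scaling (0.64, adjusted p = 0.0414), no variance trend (adjusted p = 0.0398), voom (adjusted p = 0.0479), library weights (adjusted p = 8.04e-08) and a minimum of 5 FPKM (adjusted p = 0.0496), always short of 2-fold. It turned to -0.23 under quantile normalization and to -0.10 with length and GC trends removed. It did not pass with the replicate block or without any library other than control replicate 2 (adjusted p between 0.138 and 0.170). Nor did it pass in limma with a pseudocount of 0.1 (adjusted p = 0.0516) or 5 (adjusted p = 0.0542), or with no filter (adjusted p = 0.0638). Atf3 stood at 6.0, 5.96 and 5.52 FPKM without IGF1 and at 6.37, 8.40 and 5.57 FPKM after IGF1. The groups overlapped, and IGF1 replicate 2 alone lay above the rest. Its log2 change of 0.17 (limma, SE 0.16, adjusted p = 0.392) did not pass with control replicate 2 or without it (0.19, adjusted p = 0.192).

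**Figure D3:**
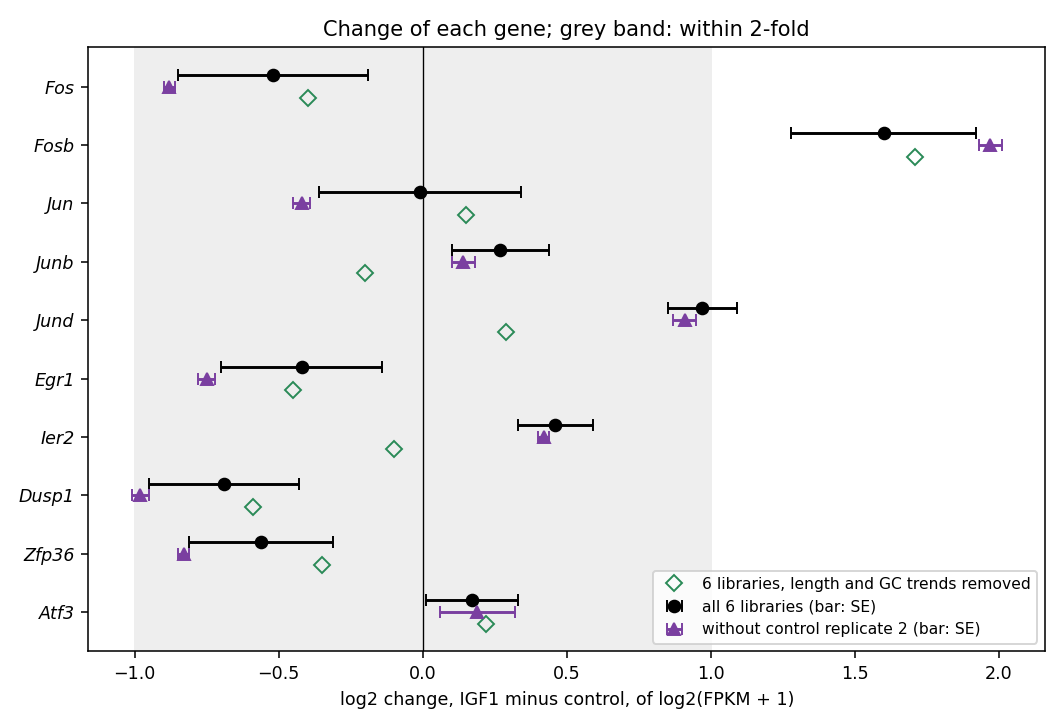
Log2 change of each gene (x axis, IGF1 minus control on the log2(FPKM + 1) scale) over all 6 libraries (circles, bars are standard errors), without control replicate 2 (triangles, bars are standard errors) and with trends on transcript length and GC content removed (diamonds). Fosb lies outside the 2-fold band in each, from 1.60 to 1.97, and Jund moves from 0.97 to 0.29 when the trends are removed.

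The median log2 change of the 10 genes was 0.08, with 5 above and 5 below 0, against a median of -0.18 over all tested genes, of which 59.6% lay below 0. The median of the 10 was 0.40 with 75th percentile scaling, where that of all genes was 0.12, and -0.57 under quantile normalization, where that of all genes was -0.01. Groups did not overlap in 5 of the 10 genes (Fosb, Junb, Jund and Ier2 higher, Dusp1 lower), where 59.4% of all tested genes did not overlap, 21.9% of all being higher and 37.4% lower, so the share of separated genes was close to that of the table. In a 2-sided exact permutation test each of these 5 genes had p = 0.1, the smallest that 3 against 3 libraries allow. An unadjusted p under 0.05 was found for 4 of the 10 genes and for 53.4% of all genes. Without control replicate 2, 9 of the 10 genes passed the adjusted p, 4 higher and 5 lower, where 88.5% of all genes did, and Fosb alone also passed the 2-fold threshold, where 32.9% of all genes did, 12.3% of all being higher and 20.6% lower.

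Control replicate 2 was the lowest library more often in these genes than in all tested genes, and this difference was not tested. It was the lowest of the 6 libraries in 6 of the 10 genes (Fos, Jun, Junb, Jund, Egr1 and Ier2), where it was the lowest in 14.8% of all tested genes. It was the highest in 0 of the 10, and in 15.2% of all tested genes. In 7 of the 10 genes (the same 6 and Fosb) it lay below every IGF1 library, where this held for 34.9% of all tested genes. The count was 8 to 9 of 10 under other scalings, where the share of all genes was 41.5% to 45.7%. Relative to the mean of control replicates 1 and 3, control replicate 2 had 0.434 times the FPKM of Jun, 0.472 times that of Fos, 0.505 times that of Egr1, 0.545 times that of Dusp1 and 0.565 times that of Zfp36. It had 0.753 times that of Junb, 0.865 times that of Jund, 0.933 times that of Ier2, 1.03 times that of Atf3 and 2.26 times that of Fosb. Relative to control replicate 2 the IGF1 mean was 1.73-fold for Jun, 1.15-fold for Fos and 1.18-fold for Egr1, so the direction of these 3 genes depended on which control was read.

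**Figure D4:**
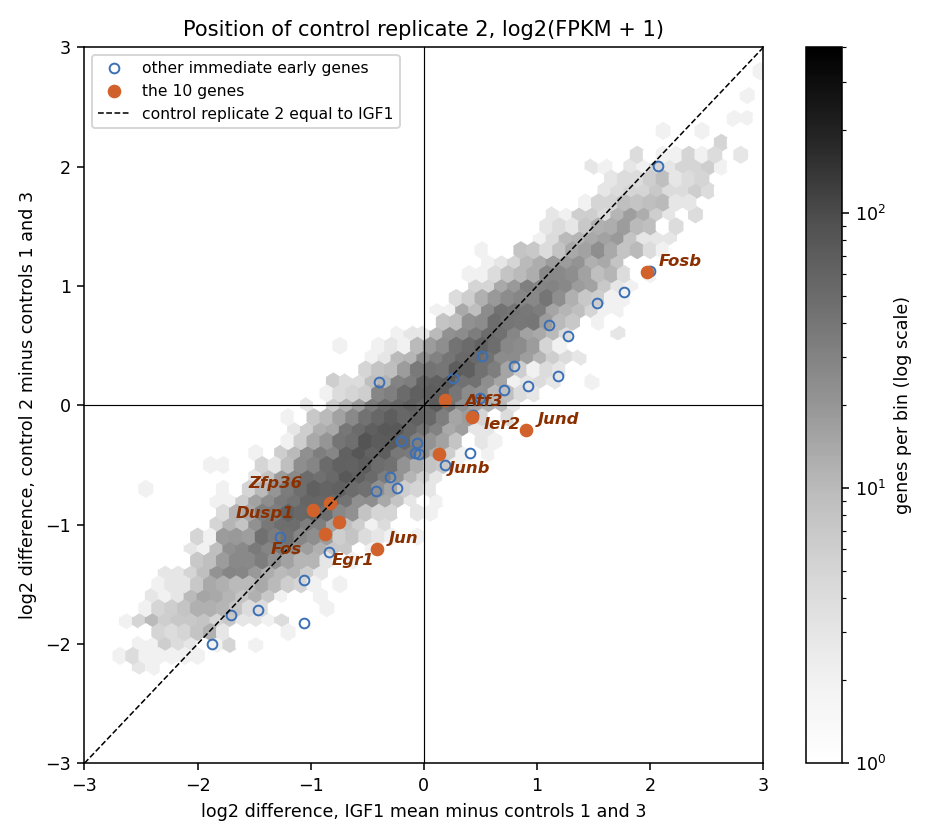
For 10449 tested genes (grey bins, log-scaled shading; 16 genes lie outside the axes), the difference of the IGF1 mean (x axis) and of control replicate 2 (y axis) from the mean of control replicates 1 and 3, in log2(FPKM + 1). Of the 10 genes (orange), 7 lie below the dashed line of equality with control replicate 2 under every IGF1 library, as do 28 of 31 other immediate early genes (blue), against 34.9% of all genes.

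The position of control replicate 2 was similar in a wider list of 36 other immediate early genes, of which 31 could be tested. Control replicate 2 lay below every IGF1 library in 28 of these 31 genes and was the lowest of all libraries in 16 of 31 (51.6%). Of the 31 genes 5 were called higher and 0 lower, and by adjusted p alone 11 were higher and 0 lower, with a median log2 change of 0.19. Of all tested genes 1.98% were called higher and 4.63% lower, and by adjusted p alone 6.26% were higher and 14.1% lower. The called genes were Ier5l (log2 change 1.10, adjusted p = 0.0287), the kinase gene Sik1 (1.08, adjusted p = 0.0332), the NF-kB inhibitor gene Nfkbia (1.45, adjusted p = 0.0363), the GTPase gene Rhob (1.25, adjusted p = 0.0369) and the clock gene Per1 (1.62, adjusted p = 0.0377), all from limma. The most abundant others were Myc, Ier3 and Klf2. Myc stood at 352, 163 and 351 FPKM without IGF1 and at 143 to 146 FPKM after IGF1 (-0.90, adjusted p = 0.0704), and Klf2 stood at 65.6, 106 and 66.3 FPKM without IGF1 and at 139 to 148 FPKM after IGF1 (0.88, adjusted p = 0.0429), short of the 2-fold threshold. Ier3 changed by 0.38 (adjusted p = 0.0872). 7 genes of the list were called higher and 6 lower without control replicate 2.

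Close relatives of the 10 genes moved in both directions. Of 10 tested bZIP relatives, 0 were called higher and 1 lower, Atf2, which encodes a JUN partner (-1.20, adjusted p = 0.0394 from limma). Among the abundant relatives, Batf (70.6 to 99.8 FPKM) changed by 0.17, Mafk by -0.63 and Jdp2, which encodes a repressor of AP-1, by -0.72 (adjusted p = 0.0388), short of 2-fold. Maff, which encodes a small MAF protein, rose by 0.93 (adjusted p = 0.0287), also short of 2-fold, with no overlap of the groups. 1 relative was called higher, Maff (1.05), and 1 lower without control replicate 2. Egr2, Egr3 and Egr4 all lay under 1 FPKM in each library, at most 0.336, 0.318 and 0.628 FPKM, so Egr1 was the only EGR gene that could be tested. Of the corepressors of EGR1, Nab1 was called lower (-1.07, adjusted p = 0.0363) and Nab2, itself an EGR target, changed by 0.44 (adjusted p = 0.0691). Of these 2 tested genes, 0 were called higher and 1 lower by limma without control replicate 2.

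In the DUSP list, 12 genes were tested, 1 was called higher and 0 lower. The called gene was Dusp23 (1.17, adjusted p = 0.043 from limma). Dusp2, which encodes a nuclear MAP kinase phosphatase like that of Dusp1, stood at 183, 266 and 174 FPKM without IGF1 and at 371, 375 and 364 FPKM after IGF1 (0.86, adjusted p = 0.0412), short of 2-fold and in the direction opposite to the value of Dusp1. Dusp5 changed by -0.02 and Dusp6, a negative regulator of MAP kinase signalling, by -0.91 (adjusted p = 0.0794). 3 genes of the DUSP list were called higher and 1 lower without control replicate 2. In the list of ZFP36 relatives and AU-rich element decay, 7 genes were tested, 2 were called higher (Zfp36l1, 1.31, adjusted p = 0.0352; Khsrp, 1.11, adjusted p = 0.0498) and 0 lower. Zfp36l1 stood at 9.12, 16.0 and 8.52 FPKM without IGF1 and at 28.0 to 28.7 FPKM after IGF1. Zfp36l2 changed by 0.55, Hnrnpd by 0.17 and Elavl1, whose protein HuR stabilises AU-rich mRNAs, by -1.52 (adjusted p = 0.0551). 2 genes of that list were called higher and 2 lower without control replicate 2.

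Of 18 tested inducers of the response, 0 were called higher by limma, and 11 had an unadjusted p under 0.05 in either direction. Rps6ka1 changed by -0.36, Mapkapk2 by 0.89 and Mapk14, which encodes p38, by -0.80, and 0 of these passed. 3 inducers were called higher and 6 lower without control replicate 2. Of 10 tested AP-1 and EGR targets, 0 were called in either direction by limma, 4 had an unadjusted p under 0.05, and 1 passed by adjusted p alone. This was Cdkn1a, the gene of the cell cycle inhibitor p21, with 67.1 to 69.1 FPKM in the controls and 111 to 120 FPKM in the IGF1 libraries (0.76, adjusted p = 0.0286). Vim changed by 0.90 (adjusted p = 0.0559) and Cd44 by -0.06. 1 target was called higher and 1 lower without control replicate 2. In the list of heat shock genes, which respond to cell handling along with the immediate early genes, 8 were tested, 0 were called higher and 1 lower, the mitochondrial chaperonin gene Hspd1 (-1.05, adjusted p = 0.0439), and without control replicate 2, 1 was called higher and 2 lower. The summed FPKM of the list was 3038, 4097 and 3051 in control replicates 1, 2 and 3 and 3656 to 3676 in the IGF1 libraries. Of its most abundant genes, Hsp90ab1 changed by 0.21, Hspa8 by 0.03 and Hsp90aa1 by 0.05. The inducible Hspa1a lay at 0.650 to 6.16 FPKM, with control replicate 2 the lowest, and its part in the values of the 10 genes was not tested.

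The profiles of the 10 genes were compared with those of all genes of at least median expression, by the root mean square difference of log2(FPKM + 1) over the 6 libraries after centring each gene. Within the 10, Fos and Egr1 were nearest to each other (0.069), as were Dusp1 and Zfp36 (0.072), while Fosb was far from its nearest member, Jund (0.541). Over the whole table the nearest gene was Ier5 for Ier2 (0.027) and Gadd45b for Jund (0.143), both also immediate early genes. For the others it was Pttg1ip for Fos (0.020), Flii for Egr1 (0.031), Ppp6r3 for Dusp1 (0.026), Pisd for Zfp36 (0.019), Hps1 for Jun (0.054), Tuba8 for Junb (0.047), H2afj for Fosb (0.065) and Rab5c for Atf3 (0.117). Among 5224 genes ranked by nearness, Egr1 held rank 43 for Fos and Fos held rank 40 for Egr1, so such profiles were not particular to immediate early genes.

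The cell type was checked with marker lists. Of 13 HSC and sort markers 12 were tested and 0 called by limma, with an unadjusted p under 0.05 for 5. Leaving out control replicate 2, 0 were called higher and 5 lower. Kit stood at 105, 31.4 and 104 FPKM without IGF1 and at 24.2 to 24.6 FPKM after IGF1, and Ly6a, the gene of Sca1, 219, 615 and 231 FPKM and 374 to 387 FPKM. The defining Slamf1 and Hoxb5 were low, at most 2.41 and 0.691 FPKM. Against the gate, the mRNA of Cd34 was high, at 640, 265 and 634 FPKM without IGF1 and 230 to 238 FPKM after IGF1, and Flt3 had 117 to 188 FPKM. Of the list of 3 genes that held both, 0 were called by limma, 3 had an unadjusted p under 0.05, and 2 were called lower without control replicate 2. The progenitor gene Mpo had 1613 to 1705 FPKM in all libraries. The cells are therefore named by their sort.

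Markers of other cells moved with the groups as well. Of 9 tested neutrophil and monocyte markers, 0 were called higher and 4 lower, S100a8, S100a9, Ngp and Camp (log2 changes -3.39 to -1.90), and in each of these control replicate 2 lay between the groups. Elane, the neutrophil elastase gene of the same list, stood the other way, at 92.8, 576 and 92.4 FPKM without IGF1 and at 692 to 709 FPKM after IGF1, with no overlap (2.03, adjusted p = 0.0726). 1 marker of the list was called higher, Elane (2.90), and 4 lower without control replicate 2. The summed FPKM of that list was 2699 to 2821 in the controls and 2782 to 2797 in the IGF1 libraries, and the defining Ly6g was at most 0.200 FPKM and at 0 in control replicate 2 and in the IGF1 libraries. For B and T cells, 5 markers were tested by limma and 0 called (3 at an unadjusted p under 0.05, 4 called without control replicate 2), and the sum ran from 446 to 1069 FPKM in the controls and from 1065 to 1096 FPKM in the IGF1 libraries, with Cd3e at most 0.206 and Ms4a1 at most 0.339 FPKM. For erythroid and megakaryocyte markers 9 were tested and 1 was called higher, Gp1bb (1.12), with 3 called higher and 0 lower without control replicate 2, sums of 87.4 to 175 FPKM in the controls and 143 to 157 FPKM in the IGF1 libraries. Stromal and endothelial markers other than Pecam1 lay under 1 FPKM, with list sums of 18.0 to 35.9 FPKM, and 0 of 1 tested was called (0 at an unadjusted p under 0.05). In these sorted bulk samples, fewer cells of a type and less RNA per cell cannot be told apart, and the part of such cells in the values of the 10 genes was not tested.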

How the data were processed

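RNA-seq of HSCs sorted from the BM of 3 control and 3 IGF1 libraries was used. Libraries were made with a stranded mRNA kit per the labels. The authors trimmed the reads with fastp. The submitters' processing notes name HISAT2, StringTie and GRCm38 (mm10), while the methods name RSEM and DESeq2. Per library, the authors deposited a value for each symbol, taken here as FPKM, since the header names no unit and the steps below give whole reads and lengths. The values of a gene were whole multiples of 1 step for all 15640 rows above 0 (within 0.01 read), and the gene length implied by the step was whole for 15622 of them (within 0.01 base). This gave reads per gene, up to common factors, with the scale set by the length that 25.0% of 804 genes with 1 reference transcript shared. Intervals from such reads cover counting error only.

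The filter kept genes that reached 1 FPKM in 3 or more libraries. On log2(FPKM + 1), limma 3.58.1 (R 4.3.3), with a variance trend in its moderated fit, compared the groups. Genes were called at a fold change over 2 and an adjusted p under 0.05, the thresholds of the methods. The pseudocount understates the changes of low genes. The fit was tested on simulated data with an even spread between libraries, which held no library like control replicate 2. Since FPKM are not counts, count weights (voom) served only as an alternative. Alternatives were the pseudocount, the filter, 3 scalings, no trend, a replicate block, library weights, leaving out each library, voom on the recovered reads, and removing trends on transcript length and GC content (natural splines with 5 degrees of freedom; GENCODE M21 transcripts, found for 99.1% of tested genes). Same-numbered libraries did not deviate together (correlations of -0.06, -0.05 and 0.01), so the numbers were not taken as pairs.

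The 10 genes and the lists were chosen with earlier results of these data known. Named genes are the 10, in each list of the pathway up to 4 called genes and the 3 other genes of highest mean FPKM, and the gene nearest to each of the 10. Fosl1, Fosl2, Maff, Per1, Egr2 to Egr4 where below the filter, and single marker genes were named beyond the rule, after their values were seen. Some genes that the rule names are not reported here.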

Additional observations from a re-analysis of the deposited data

How the results depend on the processing

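The number of called genes rose when control replicate 2 was left out and fell to 0 when any other library was. Leaving out each library in turn gave 0 to 3438 called genes in the table, 0 to 1 called among the 10 immediate early genes, and a median log2 change of the 10 between -0.14 and 0.19. Only leaving out control replicate 2 kept Fosb called, with 3438 genes called in all. With the replicate block 0 genes were called by limma, in the table or among the 10, where 4791 of all genes and 2 of the 10 had an unadjusted p under 0.05 (5582 and 4 without the block), and Fosb had an adjusted p of 0.0851. The number of called genes was 223 with a pseudocount of 5, 374 with no filter, 3435 with library weights, 1057 with voom on recovered reads, 314 with length and GC trends removed and 2130 by adjusted p alone, against 691. Of the 10 genes, 2 were called with 75th percentile scaling, with median of ratios scaling and by adjusted p alone, against 1, Jund being the gene added under each. Their median log2 change moved to -0.57 under quantile normalization. The direction turned for Jun with median of ratios scaling (0.17), 75th percentile scaling (0.33), length and GC trends removed (0.15), voom (0.01), and, among fits leaving out 1 library (-0.42 to 0.19), without control replicate 1 (0.19), control replicate 3 (0.18) or IGF1 replicate 2 (0.00). It turned for Ier2 under quantile normalization (-0.23) and with length and GC trends removed (-0.10), and for Junb likewise (-0.50 and -0.20). The cause of these moves was not tested. Fos, Fosb, Jund, Egr1, Dusp1, Zfp36 and Atf3 kept their direction under every alternative run. Each alternative kept control replicate 1 or 3 among the controls, so none could show the direction against control replicate 2 alone. Relative to control replicate 2 the IGF1 mean was 1.15-fold for Fos and 1.18-fold for Egr1, opposite to their direction in these fits. The count of genes with control replicate 2 below every IGF1 library was checked under 3 scalings chosen after seeing the data. Depth limits Atf3 alone among the 10, at 136 to 190 reads.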
